A study of Mus musculus with 4 samples.

Results

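The type 2 cytokine locus of the mouse is a stretch of chromosome 11 that holds the cytokine genes Il4, Il13 and Il5, with Csf2 farther along the same chromosome. The 4 cytokine genes and 2 housekeeping neighbours, Rad50 and Kif3a, were taken from the deposited table by their symbols, 6 of 17187 genes, and all 6 were found. They were compared with each other in each library and between groups. The libraries were made from group 2 innate lymphoid cells (ILC2s), lymphocytes without an antigen receptor, sorted from lungs of BALB/c mice that the series' design text calls wild type. Culture lasted 18 hours, with either an isotype control antibody (the isotype group, 2 libraries, called controls) or an antibody against CD226, a costimulatory receptor of lymphocytes (the anti-CD226 group, 2 libraries, called treated). The labels give 5 µg/mL, in wording that may or may not cover the isotype control. The design text can be read as treatment of the mice rather than of cultured cells, and the treatment column of the table calls the controls PBS. The sources used here give no age, sex, antibody clone or sort gate. They do not say whether a group's libraries came from separate mice or wells. The p-values therefore rest on a spread that may be technical.

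IL-4 and IL-13 share a receptor chain, IL-4Rα, and signal through STAT6. IL-4 is known for driving class switching to IgE and type 2 T cell differentiation, and IL-13 for mucus production and airway hyperreactivity. IL-5 supports the growth and survival of eosinophils, and Csf2 encodes GM-CSF, a growth factor of macrophages, dendritic cells and granulocytes. In lung ILC2s the locus is known to be open before stimulation, and IL-5 and IL-13 are the products for which these cells are best known. Rad50 encodes a subunit of the MRN complex of DNA repair, and its gene body carries the locus control region of the type 2 cytokines. Kif3a encodes a motor subunit of kinesin-2, which builds cilia.

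All positions are on GRCm38, the assembly that mm10 denotes, from GENCODE M21. From low to high coordinates the genes are Kif3a (chr11:53567379-53601967, plus strand), Il4 (chr11:53602982-53618669, minus), Il13 (chr11:53631324-53634702, minus), Rad50 (chr11:53649519-53707319, minus), Il5 (chr11:53720794-53725106, plus) and Csf2 (chr11:54247271-54249667, minus). Kif3a ends 1014 bases before Il4, the gap between Il4 and Il13 is 12.7 kb, and Rad50 lies between Il13 and Il5 with gaps of 14.8 kb and 13.5 kb. Csf2 is 522 kb beyond Il5. A gene annotated on the other strand overlaps Il5 (Gm12214) and another overlaps Csf2 (Gm12223). The strand setting of the counting is not given, so reads of such partners cannot be told apart.

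The promoters of the 4 cytokine genes are shown because the 4 differ in level while sharing regulators. Each line is the 250 bases before the RefSeq start site (GRCm38.p6), 5′ to 3′ on the strand of the gene, and capitals mark matches on either strand to the letters that GATA factors favour, which are AGATAA with its opening base A or T and its closing base A or G. They lie at chr11:53618666-53618915 for Il4, chr11:53634703-53634952 for Il13, chr11:53720544-53720793 for Il5 and chr11:54249900-54250149 for Csf2.
Il4: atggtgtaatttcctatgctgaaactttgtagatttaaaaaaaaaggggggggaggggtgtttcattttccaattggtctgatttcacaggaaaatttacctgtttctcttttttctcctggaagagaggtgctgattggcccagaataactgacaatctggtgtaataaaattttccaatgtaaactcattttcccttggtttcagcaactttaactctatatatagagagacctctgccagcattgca
Il13: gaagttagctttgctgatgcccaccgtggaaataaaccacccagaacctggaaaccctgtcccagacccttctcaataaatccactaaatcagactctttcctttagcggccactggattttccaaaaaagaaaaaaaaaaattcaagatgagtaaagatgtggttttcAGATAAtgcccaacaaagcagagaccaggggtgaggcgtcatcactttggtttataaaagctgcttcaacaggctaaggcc
Il5: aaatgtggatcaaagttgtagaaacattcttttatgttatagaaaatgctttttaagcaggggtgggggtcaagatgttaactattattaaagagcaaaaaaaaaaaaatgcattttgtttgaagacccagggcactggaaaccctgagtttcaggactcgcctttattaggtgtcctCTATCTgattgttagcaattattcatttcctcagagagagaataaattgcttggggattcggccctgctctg
Csf2: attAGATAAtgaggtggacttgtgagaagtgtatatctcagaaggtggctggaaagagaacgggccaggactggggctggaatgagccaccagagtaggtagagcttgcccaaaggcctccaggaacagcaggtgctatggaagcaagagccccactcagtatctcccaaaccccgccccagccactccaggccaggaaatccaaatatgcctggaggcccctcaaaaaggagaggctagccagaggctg

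The Il13 window held 1 such match, 81 to 76 bases before the start, the Il5 window 1, from 72 to 67, and the Csf2 window 1, from 247 to 242. The Il4 window held 0. Of the 32851 RefSeq windows of this length, 26.5% held at least 1. The core GGAAA, bound by NFAT factors, was matched on either strand 5 times in the Il4 window, 4 times in that of Il13, 2 times in that of Il5 and 2 times in that of Csf2, and 55.6% of windows held it. The AP-1 site TGACTCA was matched in none of the 4 (4.46% of windows), and the STAT pattern (TTC, then any 4 bases, then GAA) only in the Il4 window (5.85%), where it overlaps 1 of the GGAAA matches. The longest run shared by the Il13 and Il5 windows was CTGGAAACCCTG, 12 bases that start 203 bases before the Il13 start and 115 before that of Il5. It contains the GGAAA core and occurs in 6 of the 32851 windows on either strand (0.0183%). Those 6 include both windows it was taken from, and any run of this length is rare. The longest runs of the other pairs had 7 to 9 bases. That of Il13 and Csf2 was AGATAATG, which holds the GATA match and occurs in 0.65% of windows. Il4 has another RefSeq start, and the window nearest the GENCODE start was used. The RefSeq start of Csf2 lies 232 bases upstream of the GENCODE start. These matches are descriptions of the letters and not sites of binding.

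The table holds normalised read counts, which behave as reads divided by 1 factor per library. The value of 1 read was 0.773 to 1.11, which puts the depth at 12433729 to 17847306 reads. Whole numbers of reads were recovered for Il4, Il13, Csf2, Rad50 and Kif3a in all 4 libraries. The values of Il5 are too large for this check. In the 13010 genes with a mean of 10 or more, anti-CD226 replicate 2 stood apart, being the lowest of the 4 libraries in 37.2% of genes and the highest in 37.0%. Its deviation from the gene means followed transcript length (Spearman's rho 0.55 over 12738 genes), where isotype replicate 2 and anti-CD226 replicate 1 had -0.49 and -0.37 and isotype replicate 1 had -0.0053. Those values share the same gene means and are relative to each other. The values of single genes and ratios below are therefore also given without anti-CD226 replicate 2 or per library. Counts and medians over sets of genes or pairs rest on all 4 libraries.

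Il5 was by far the most abundant transcript of the locus, and Il4 and Kif3a were the least abundant. Levels are compared between genes as normalised reads per kilobase of the longest coding transcript. Il5 stood at 61815 and 63536 in the controls against 55583 and 44154 in treated libraries. Csf2 came next, with 5781 and 6479 against 7010 and 4803 normalised reads per kilobase. Il13 followed, with 2301 and 2837 against 2262 and 765. In no library did the levels of these 3 genes cross.

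**Figure D1:**
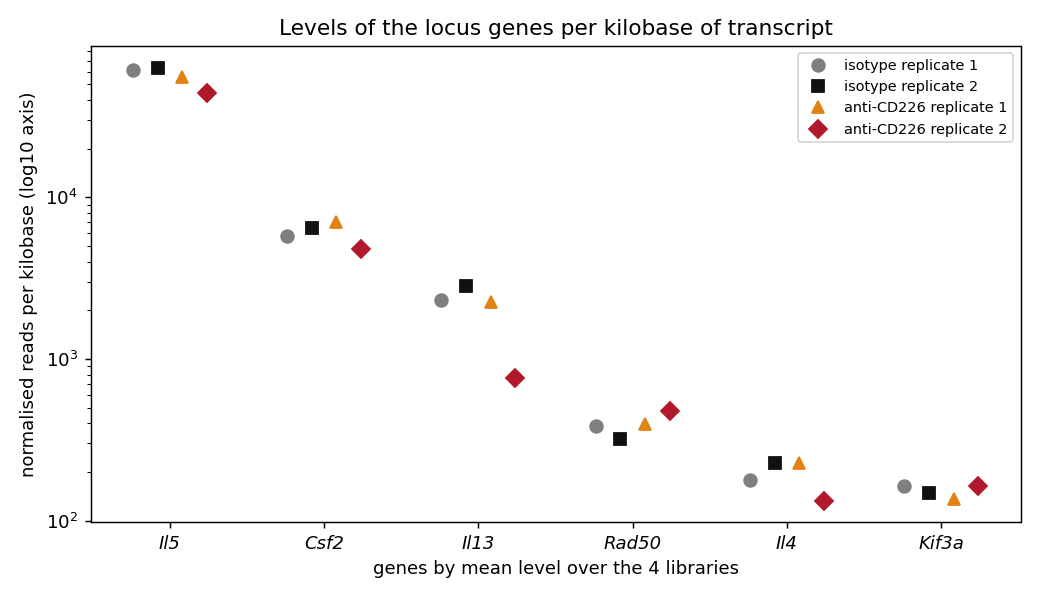
Normalised reads per kilobase of transcript (log10 axis) for the 6 genes, ordered by their mean over the 4 libraries, with 1 point per library. Il5 lies between 44154 and 63536, while Il4 (133 to 227) and Kif3a (136 to 164) overlap at the lower end.

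Rad50 lay below all 3 of those cytokines, at 321 to 476 normalised reads per kilobase. Il4 was at 177 and 227 in controls against 226 and 133 in treated libraries, and Kif3a ranged from 136 to 164. The levels of Il4 and Kif3a overlapped, and their order turned in anti-CD226 replicate 2, where Kif3a was the higher. With the union of all exons as its length, the mean level of Il4 was 94.2 in place of 191, below Kif3a. Every other pair of neighbours in the order was separated in all 4 libraries. The level of Il5 was 279 to 349 times that of Il4 in the controls and 246 to 332 times in the treated libraries. Of the summed level of the 4 cytokine genes, Il5 made up 85.4% to 88.6%, Csf2 8.25% to 10.8%, Il13 1.53% to 3.88% and Il4 0.253% to 0.348%. The share of Il13 was 3.28% and 3.88% in controls, 3.48% and 1.53% in treated libraries. The locus thus gave mainly Il5 transcripts in both groups.

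Between the groups, Il13 differed most among the 6 genes, and most of that difference lay in 1 library. None of the 6 genes passed limma's test with Benjamini-Hochberg adjustment over all 13010 genes, where 0% of genes passed. At an unadjusted p below 0.05 there were 0 of the 6, against 2.37% of all genes. The groups did not overlap for 3 of the 6 genes (26.8% of all genes), Il13 and Il5 being lower in treated libraries (13% of all genes) and Rad50 higher (13.8%). The median log2 difference was -0.14 over the 6 and 0.01 over all genes. Differences are on the log2(value + 1) scale, anti-CD226 minus isotype. In bulk libraries fewer cells of a type and less RNA per cell cannot be told apart.

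**Figure D2:**
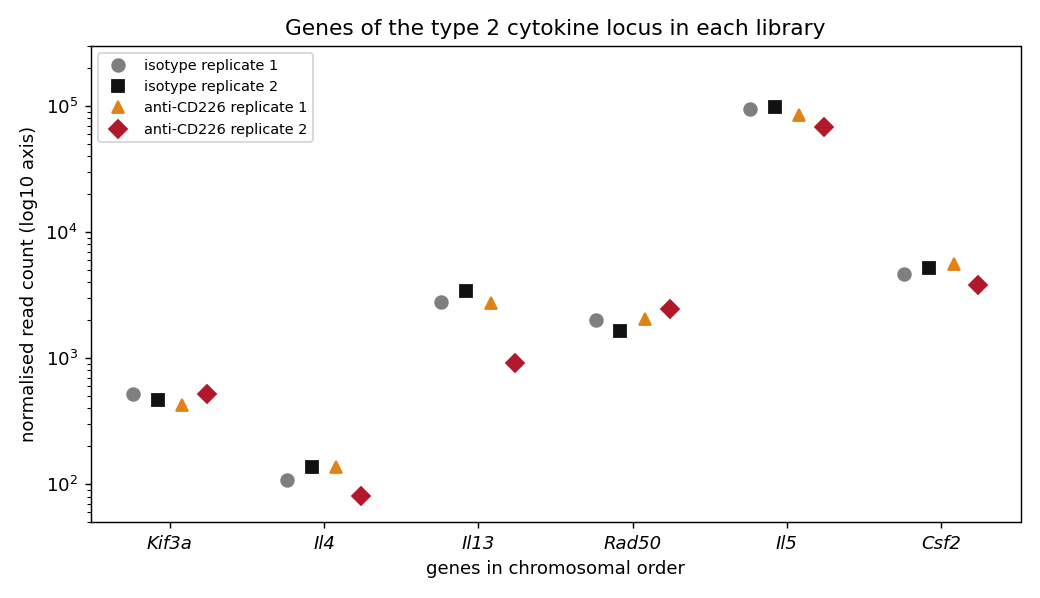
Normalised read count (log10 axis) of the 6 genes in chromosomal order, with 1 point per library. Il13 stands at 921 in anti-CD226 replicate 2 and at 2725 to 3419 in the other libraries, while Rad50 is highest in the same library, at 2454.

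Il13, the cytokine of mucus and airway reactivity, stood at 2773 and 3419 normalised reads in controls against 2725 and 921 in treated libraries. The first 3 of these lie close together, and anti-CD226 replicate 2 alone is far lower. Against the isotype mean Il13 was 1.14-fold lower in the first treated library and 3.36-fold lower in the second. The log2 difference between groups was -0.96 (standard error 0.43, 95% interval -1.96 to 0.04; limma, adjusted p = 0.98). Without anti-CD226 replicate 2 it was -0.18. Without anti-CD226 replicate 1 it was -1.74 (limma, adjusted p = 4.3e-10), in a fit that takes the lone library to vary like the other group and in which 1633 genes passed. Ranked from the lowest by difference from the isotype mean, Il13 was at 81 of 13010 genes in anti-CD226 replicate 2, as opposed to 2206 in anti-CD226 replicate 1. The counts behind the values were 2509 and 4425 reads in isotype and 2647 and 836 reads in treated libraries. The exact Poisson 95% interval for anti-CD226 replicate 2, 860 to 986 normalised reads, lies far from the others. It covers counting error only, since reads after amplification do not each stand for a separate molecule.

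Il5, the eosinophil growth factor, stood at 95010 and 97655 normalised reads in controls against 85431 and 67864 in treated libraries. By value it had rank 3 among all genes in 3 libraries and rank 4 in anti-CD226 replicate 2. Both treated libraries lay below both controls. Il5 was 1.13-fold lower than the isotype mean in the first treated library and 1.42-fold lower in the second. The log2 difference was -0.34 (standard error 0.18, 95% interval -0.76 to 0.08; limma, adjusted p = 0.98), and -0.17 without anti-CD226 replicate 2. Under quantile normalization it was -0.07. That method gives a rank the same value in every library, so a gene at rank 3 or 4 throughout can hardly differ. The value therefore cannot show whether the difference depends on scaling. Gm12214, the gene annotated antisense to Il5, had 290 and 326 normalised reads in isotype and 331 and 141 in treated libraries, 0.207% to 0.388% of the value of Il5.

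Il4 was low in every library and did not separate the groups. It stood at 107 and 138 normalised reads in isotype against 137 and 80.5 in treated libraries, so the treated libraries were the second highest and the lowest of the 4. Read counts were 97 and 178 in controls, 133 and 73 in treated libraries. The Poisson 95% intervals were 86.9 to 131 and 118 to 159 normalised reads for the controls, and 115 to 162 and 63.1 to 101 for the treated libraries. The log2 difference was -0.21 (standard error 0.31, 95% interval -0.92 to 0.50; limma, adjusted p = 0.98). Without anti-CD226 replicate 2 it was 0.17.

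Csf2, which encodes GM-CSF, stood at 4625 and 5183 normalised reads in isotype against 5608 and 3842 in treated libraries. The treated libraries were the highest and the lowest of the 4, and the controls lay between them. The log2 difference was -0.08 (standard error 0.21, 95% interval -0.56 to 0.41; limma, adjusted p = 0.98), and 0.20 without anti-CD226 replicate 2. Gm12223, antisense to Csf2, did not exceed 3.32 normalised reads, the value of 3 reads in isotype replicate 1.

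Rad50 stood at 1994 and 1653 normalised reads in isotype against 2049 and 2454 in treated libraries. Both treated libraries were above both controls, by a margin that in anti-CD226 replicate 1 was small against isotype replicate 1. The log2 difference was 0.30 (standard error 0.18, 95% interval -0.12 to 0.73; limma, adjusted p = 0.98), and 0.17 without anti-CD226 replicate 2. Kif3a stood at 519 and 467 in controls against 429 and 518 in treated libraries, and its groups overlapped. Its log2 difference was -0.06 (standard error 0.19, 95% interval -0.50 to 0.38; limma, adjusted p = 0.98). All 4 cytokine genes had their lowest value in anti-CD226 replicate 2, as 37.2% of all genes did, and Rad50 had its highest value there.

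Ratios between genes of the locus within a library do not depend on the factor by which that library was scaled. All 15 pairs were compared. With 2 libraries a group, the smallest p of an exact two-sided permutation test is 0.333, and after adjustment over the 15 pairs the smallest p was 0.77. The groups did not overlap in 6 of the 15 pairs, against 29% of all pairs of genes tested. The ratios of Il13 to the other genes lay farthest from the controls in anti-CD226 replicate 2. For each 1000 normalised reads of Il5 there were 29.2 and 35.0 of Il13 in controls, 31.9 and 13.6 in the treated libraries. The ratio of Il13 to Csf2 was 0.600 and 0.660 in controls and 0.486 and 0.240 in treated libraries, which did not overlap (log2 difference -0.88, exact permutation p = 0.33). Il4, which of the 6 genes lies nearest to Il13, had 38.7 and 40.2 normalised reads for each 1000 of Il13 in controls. It had 50.2 and 87.3 in treated libraries. That is a log2 difference of 0.75 (exact permutation p = 0.33).

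**Figure D3:**
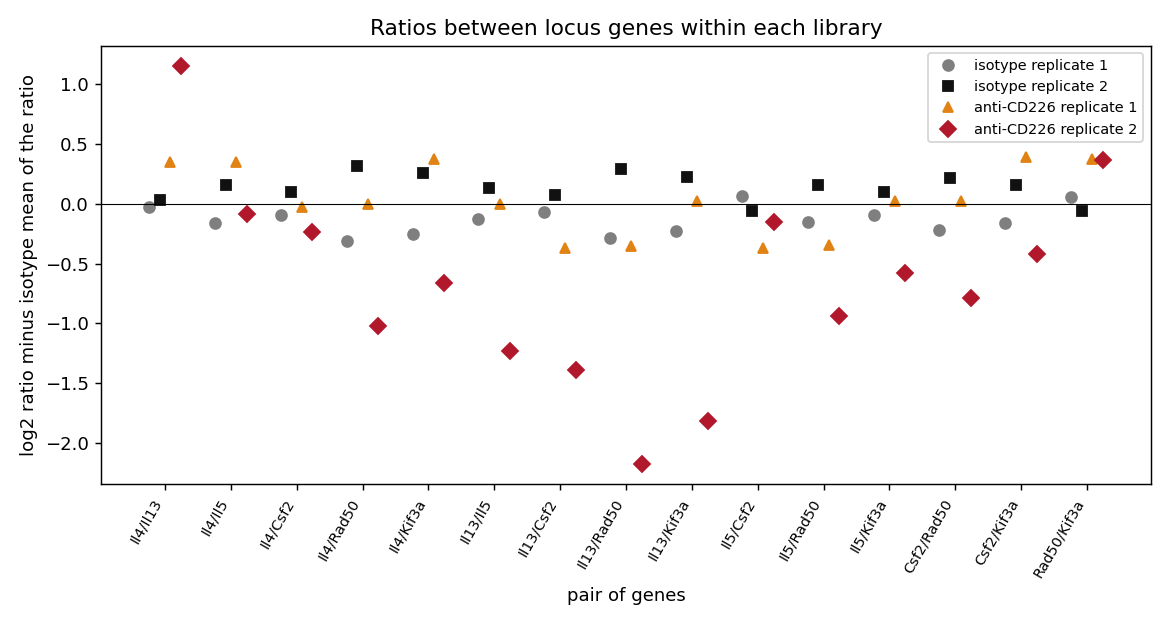
Log2 ratio of each of the 15 pairs of genes in each library, minus the isotype mean of that ratio, with 1 point per library. The ratios of Il13 to the other genes are far from 0 in anti-CD226 replicate 2, down to -2.17 for Il13 to Rad50.

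The ratio of Il13 to Rad50 had the widest range of the 15 pairs. Il13 had 1.39 and 2.07 times the normalised reads of Rad50 in controls, then 1.33 and 0.375 times in the treated libraries. The log2 difference was -1.26 (exact permutation p = 0.33), and -0.35 without anti-CD226 replicate 2. The ratio of Il5 to Csf2 was 20.5 and 18.8 in controls and 15.2 and 17.7 in treated libraries, a log2 difference of -0.26 that was -0.37 without anti-CD226 replicate 2 and -0.16 without anti-CD226 replicate 1. Rad50 to Kif3a, the ratio of the housekeeping neighbours, was 3.84 and 3.54 in controls and 4.77 and 4.74 in treated libraries (log2 difference 0.37, exact permutation p = 0.33). The ratio of Il4 to Il5 overlapped between groups, with 1.13 and 1.41 normalised reads of Il4 for each 1000 of Il5 in controls and 1.60 and 1.19 in treated libraries. That of Il4 to Csf2 also overlapped, with 23.2 and 26.5 reads for each 1000 against 24.4 and 20.9.

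The 4 cytokine transcripts are short and the housekeeping transcripts long, and length moved with the values of anti-CD226 replicate 2. The longest coding transcripts are 605 bases for Il4, 800 for Csf2, 1205 for Il13, 1537 for Il5, 3161 for Kif3a and 5153 for Rad50. A smooth trend of each library's deviation on log10 length was fitted over all genes and removed. For anti-CD226 replicate 2 against the isotype mean, the difference of Il4 was -0.59 on the log2 scale before and -0.06 after removal. That of Csf2 was -0.35 before and 0.10 after. For Il5 it was -0.51 before and -0.27 after, and for Rad50 0.43 before and 0.18 after. Il13 was at -1.74 before and -1.41 after, so that its lower value in this library was not removed with the trend. In anti-CD226 replicate 1 Il13 was at -0.22 after removal. With the trend removed, the log2 difference between groups was -0.81 for Il13, -0.24 for Il5 and 0.18 for Rad50. It turned to 0.02 for Il4 and 0.12 for Csf2. The unadjusted p of Il13 was then 0.030, and the adjusted p (limma, Benjamini-Hochberg) 0.996 to 0.997 for all 5.

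**Figure D4:**
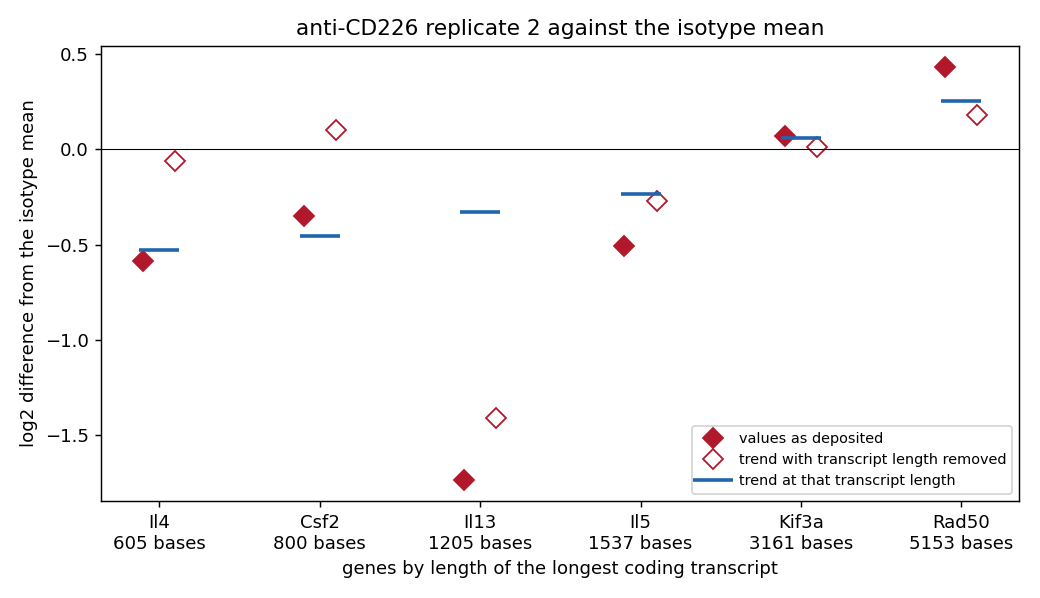
Log2 difference of anti-CD226 replicate 2 from the isotype mean for the 6 genes ordered by transcript length, as deposited (filled), with the length trend removed (open) and the trend itself at that length (bar). Il4 and Csf2 lie near their trend, whereas Il13 lies at -1.74 against a trend of -0.33.

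Among the cytokine genes, Rad50, Kif3a and the tested neighbours from a list, Il13 was the lowest in anti-CD226 replicate 2 against the isotype mean. Uqcrq at -0.85 and Il4 at -0.59 followed. Other genes annotated in this stretch were not ranked. Among them was Gm12214, at 290 and 326 normalised reads in isotype and 331 and 141 in treated libraries. Of 23 neighbours listed, 15 were matched on chromosome 11 and 12 of them were tested. Of these 12, 8 were higher and 4 lower in anti-CD226, with a median log2 difference of 0.10, and 0 passed the adjusted p or an unadjusted p of 0.05. Irf1, the interferon regulatory factor encoded beyond Il5, had 886 and 922 normalised reads in isotype and 966 and 968 in treated libraries. Rapgef6, an exchange factor of Rap proteins, had 2010 and 1558 against 1780 and 2722. Uqcrq, a subunit of respiratory complex III, had 3009 and 3658 against 3620 and 1836, so it too was lowest in anti-CD226 replicate 2. Aff4, a scaffold of the super elongation complex, had 6616 and 6076 against 5960 and 9508. Slc22a5, a carnitine transporter, had 227 in both controls and 189 and 206 in treated libraries. The longest coding transcripts of Rapgef6 and Aff4 have 8189 and 10099 bases and that of Uqcrq 1521. Il3, which lies beside Csf2, was listed but was not among the 15 matched.

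**Figure D5:**
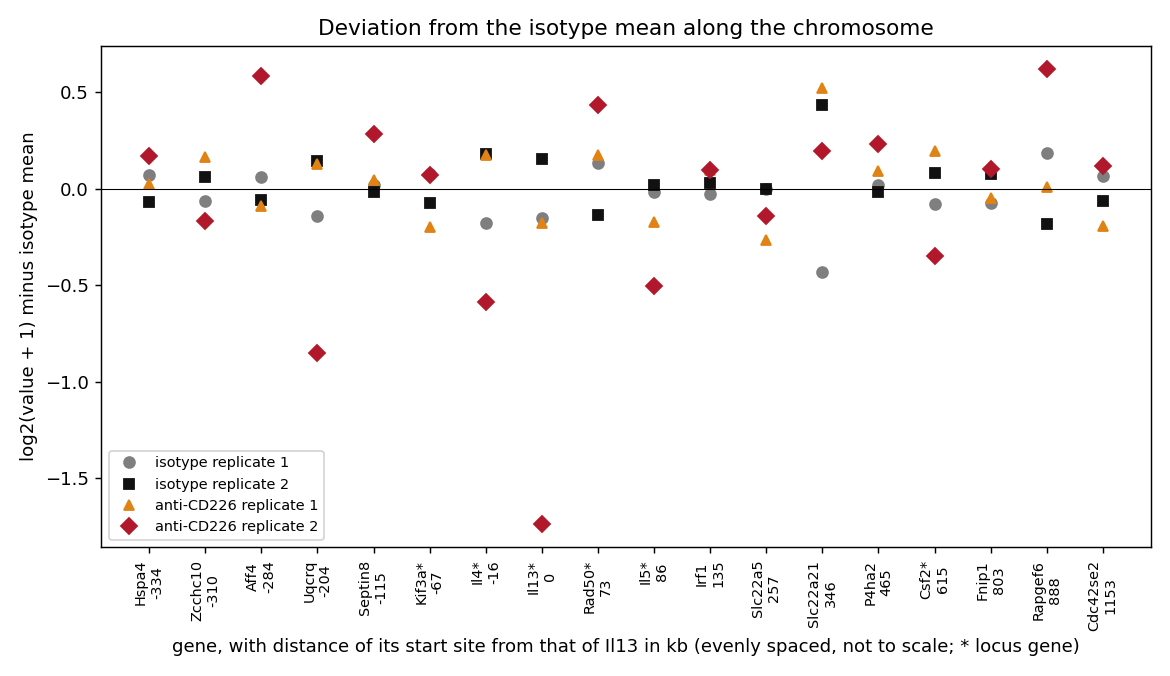
Log2(value + 1) minus the isotype mean of the gene, for the cytokine genes, Rad50, Kif3a and the tested neighbours from the list. Genes are in order along chromosome 11 (evenly spaced), labelled with the distance in kb from the Il13 start, with 1 point per library. Il13 in anti-CD226 replicate 2 (-1.74) is the lowest point of that library, and its neighbours Il4 and Rad50 lie at -0.59 and 0.43 in that library.

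The receptors of these cytokines were present at levels that did not separate in the test. Of 9 listed, 6 were tested, 5 higher and 1 lower, with a median log2 difference of 0.13 and 0 past the adjusted p or an unadjusted p of 0.05. Il4ra, the chain shared by the receptors for IL-4 and IL-13, had 2488 and 2149 normalised reads in isotype and 2155 and 2756 in treated libraries. Il2rg, the common gamma chain, had 8345 and 9249 against 8889 and 11160. Csf2rb, the beta chain used for GM-CSF and IL-5, had 560 and 508 against 763 and 576, so both treated libraries were the higher ones. Its near-identical paralog Csf2rb2 may share reads with it, so the value is uncertain. Csf2ra, the alpha chain for GM-CSF, had 36.5 and 31.7 against 44.3 and 47.4. Il5ra was listed but was not matched in the deposited table, so it has no value here.

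Of 44 symbols listed as regulators of the locus, most of them of transcription factors or chromatin proteins, 41 were tested and 0 passed the adjusted p. By the group means 31 were higher and 10 lower in anti-CD226, where 6647 of all 13010 genes were higher, and the median log2 difference was 0.19. An unadjusted p below 0.05 was found for 2 of the 41 (2.37% of all genes). The groups did not overlap for 16 (26.8% of all genes), 10 higher and 6 lower. The summed value of the list was 91494 and 82306 in controls against 90615 and 108043 in treated libraries. Anti-CD226 replicate 1 thus lay between the controls, and only anti-CD226 replicate 2, the library that stood apart, was above both. Gata3, which opens the locus, had 14198 and 13811 normalised reads in isotype and 14911 and 17310 in treated libraries. Stat6, which acts below the IL-4 receptor, had 2733 and 2204 against 2472 and 3302. Zfpm1, which encodes FOG-1, a partner of GATA factors, had 45.3 and 80.4 against 198 and 107 (log2 difference 1.25, standard error 0.38; limma, adjusted p = 0.98). Mbd2, a reader of methylated DNA, had 298 and 559 against 1690 and 547, and only anti-CD226 replicate 1 was high. Ikzf3, which encodes Aiolos, had 1923 and 1844 against 2508 and 2276, and Rora, a factor of ILC2 development, had 3536 and 3386 against 3928 and 4865.

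The genes whose course over the 4 libraries was most like that of a cytokine gene were sought among 10336 genes with a mean of 50 or more, by Euclidean distance of centred log2 values. For Il4 they included Rpl27 and 2810006K23Rik, both at a distance of 0.02. For Il13 they were 2410006H16Rik, Ndufaf2 and Rpl17-ps10, at the larger distances of 0.06, 0.07 and 0.11. For Il5 they were Ogfod3, Tmbim6 and Pyurf, at 0.03, 0.04 and 0.04, and for Csf2 Prmt6, AI662270 and Edf1, at 0.02, 0.03 and 0.03. Rpl17-ps10 is named as a pseudogene of a ribosomal protein gene, so the origin of its reads is uncertain. Among the 6 genes themselves, the closest pair was Il4 and Csf2 (distance 0.24) and the farthest was Il13 and Rad50 (1.85). Il13 was 0.94 from Il4, 1.08 from Il5 and 1.14 from Csf2.

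The labelled cell type was checked by its markers. All 10 ILC2 markers were tested, and their summed value was 69636 and 72157 in controls and 73828 and 67217 in treated libraries. By the group means 5 were higher and 5 lower in anti-CD226. Id2 (16490), Arg1 (7902), Klrg1 (2110), Areg (614) and Thy1 (76.0) had their lowest value in anti-CD226 replicate 2. Gata3 (17310) and Rora (4865) had their highest there, and Il1rl1, Il7r and Icos lay between. T cells, mast cells and basophils also transcribe genes of this locus. The 8 matched T cell markers of 10 summed to 4144 and 4736 in controls and 4063 and 2972 in treated libraries. The sum was thus lowest in anti-CD226 replicate 2. Of the 6 tested, 5 were lower in anti-CD226 by the group means and only Cd3e was higher. Most of that sum came from the T cell receptor beta constant regions, Trbc2 (1340 to 2370) and Trbc1 (602 to 948), and from Lat (511 to 821). The chains of CD3 ranged from 215 to 325 for Cd3g and 1.10 to 5.53 for Cd3d, and Cd247 from 170 to 238. Cd3e had 61.9 and 53.3 in controls against 51.5 and 79.4 in treated libraries, and was highest in anti-CD226 replicate 2. Trac, the alpha constant region, was at 2.06 to 4.64. The 9 matched mast cell and basophil markers of 11 summed to 1168 and 984 against 1042 and 1549. Most of that sum was Kit, and the others did not go 1 way. The basophil protease Mcpt8 had 34.3 and 34.8 against 15.4 and 18.7, and Cpa3, a mast cell protease, 84.0 and 100.4 against 37.1 and 63.9. Fcer1a was also lower in both treated libraries. Gata2 was higher in both, with 8.84 and 10.0 against 26.8 and 20.9, as was Hdc, with 1.11 and 3.86 against 8.24 and 12.1. Cma1 and Ms4a2 overlapped, Ms4a2 being at 0 in 1 library of each group, and Tpsb2 was at 0 in anti-CD226 replicate 2. The 10 matched macrophage markers of 12 summed to 303 and 292 in controls and to 581 and 1882 in treated libraries, and were thus highest in the library in which Il13 was lowest. Chil3, at 784, and Mmp12, at 678, made up most of the sum in that library. Mmp12, Lyz2, Cd68, Mpeg1 and Itgam were higher in both treated libraries than in both controls. Chil3, Ctss, Csf1r, Apoe and Adgre1 overlapped between groups, Ctss being at 190 and 230 against 289 and 227 and Apoe at 14.4 and 10.8 against 11.3 and 13.2. Chil3 and Itgam were at 0 in isotype replicate 2, and Mpeg1 in both controls. The only matched eosinophil marker of 6, Ccr3, was at 23.2 to 45.3. The 1 matched B cell marker of 4 was at 166 to 210, the 2 matched NK cell markers of 5 summed to 129 to 306 and the 5 matched epithelial markers of 6 to 199 to 291, with Sftpc, Scgb1a1 and Krt8 at 0 in all but isotype replicate 2. The part of these cells in the values of the locus was not tested.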

How the data were processed

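The 4 libraries were made with a low-input cDNA kit from 10 pg of RNA per the labels' protocols. The submitters' processing notes name mm10, DESeq2, Partek 10.0 and STAR 2.7.8. For the counter, the annotation and the strand setting: not given in the sources used here. What the authors deposited is a normalised signal for each gene, equal to reads divided by a factor of the library. Of values up to 1000 reads, 73.5% to 75.1% were whole multiples of 1 step (tolerance 0.02 of a step), too few for a count model. Columns of genes not named were read as the same quantity.

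Testing used log2(value + 1) of genes whose mean reached 10, in limma 3.58.1 (R 4.3.3), with a variance trend, 2 residual and 5.81 prior degrees of freedom, two-sided, with Benjamini-Hochberg adjustment at 0.05. Only the limma fit was run on simulated data, which held neither a deviating library nor a trend with transcript length. Ratios were tested by exact permutation. The 6 genes and all lists were chosen with earlier results of these data known. Also named were, of neighbours, receptors and regulators, at most 4 with the smallest p, and always Irf1, Il3, Gata3, Stat6, Il4ra, Il5ra and Csf2rb. For each cytokine gene the 3 genes nearest in course were named, except 1 that is not reported here. Antisense partners and single markers were named after their values were seen. Lengths (97.5% of genes) and positions came from GENCODE M21, promoters from RefSeq. Ccni, listed as a neighbour, is not on chromosome 11 and was left out. Alternatives varied the pseudocount, filter, scaling, variance prior, replicate block, length trend, length definition and libraries used.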

Additional observations from a re-analysis of the deposited data

How the results depend on the processing

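The sign of the difference between groups held in 90 of 97 values computed for the 6 genes under alternatives and turned in 7. The filter, variance prior and replicate block settings leave the difference itself unchanged and alter only its test, so their signs could not turn. With the length trend removed it turned for Il4 (0.020) and Csf2 (0.12). Leaving out 1 library at a time gave -0.59 to 0.17 for Il4, -1.74 to -0.18 for Il13, -0.51 to -0.17 for Il5, -0.35 to 0.20 for Csf2, 0.17 to 0.44 for Rad50 and -0.20 to 0.072 for Kif3a. It gave 12 to 1633 genes past limma's adjusted p in place of 0, 1633 being without anti-CD226 replicate 1. In such fits the lone library is taken to vary like the other group. Quantile normalization moved Il5 to -0.07, a value that its nearly constant rank largely fixed in advance.

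Same-numbered libraries did not deviate together (correlation -0.24 across genes). These deviations include each library's trend with transcript length, so the correlation cannot decide whether the labels' numbers pair the libraries. With the replicate number as a block 20 genes passed, and Il13 did not (limma, adjusted p = 0.33). With the numbers crossed, an alternative chosen after seeing the data, 61 genes passed, Il13 among them (-0.96, limma, adjusted p = 0.018).

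Of the 15 ratios, 9 kept their sign under every alternative run and 6 did not. Of the 9, some kept it only barely without anti-CD226 replicate 2. The log2 difference was then -0.0022 for Il4/Rad50, -0.0028 for Il13/Il5 and -0.024 for Il4/Csf2. The others of the 9 stayed farther from no difference. The replicate block cannot change the difference of a ratio. With the length trend removed the log2 difference turned to 0.11 for Il4/Kif3a and to 0.21 for Csf2/Kif3a. It shrank from -1.26 to -0.99 for Il13/Rad50, from -0.64 to -0.41 for Il5/Rad50 and from -0.38 to -0.06 for Csf2/Rad50. For Il13/Csf2 it grew from -0.88 to -0.93, and for Il5/Csf2 from -0.26 to -0.35. Leaving out 1 library at a time gave -0.083 to 0.35 for Il4/Il5, -0.66 to 0.37 for Il4/Kif3a, -1.81 to 0.022 for Il13/Kif3a, -0.58 to 0.025 for Il5/Kif3a, -0.78 to 0.022 for Csf2/Rad50 and -0.42 to 0.39 for Csf2/Kif3a. The mean level per kilobase was 94.2 for Il4 with the union of exons, and 553 for Rad50 and 218 for Kif3a with the median coding transcript. Counting error limits Il4 most, at 73 to 178 reads. Where no cause is named here, the cause was not tested.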
